A study of Mus musculus with 6 samples.

Results

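Stat5a, Stat5b and Stat3 are 3 neighbouring genes on mouse chromosome 11 that encode signal transducers and activators of transcription. Their transcription start sites were taken from tables of cap analysis of gene expression (CAGE), in which each tag is the capped 5′ end of an RNA and a peak of tags marks a start. A listed start was assigned to a gene when it lay on the gene's strand inside 1 of 3 adjoining windows. The starts so found ran from 100665163 to 100712077 on the minus strand for Stat5b, from 100720767 to 100745958 on the plus strand for Stat5a and from 100749888 to 100800921 on the minus strand for Stat3. Positions are those of the deposited tables, for which the submitters' notes name the mouse build mm9. This gave 39 of the 158966 listed starts, 13 for Stat5b, 15 for Stat5a and 11 for Stat3. The tables carry no gene names, so the genes rest on these windows alone. In the RefSeq gene order of another build, GRCm38.p6, the 3 genes follow each other with no other gene between them, Ghdc lies next to Stat5b and a long non-coding RNA gene followed by Cavin1 lies next to Stat3.

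The libraries came from Ba/F3, a murine pro-B line of BALB/c origin that normally needs interleukin-3 and becomes independent of it when an active tyrosine kinase is introduced. In the first group (n = 3) the cells carried FLT3-ITD, a form of the receptor tyrosine kinase FLT3 with an internal tandem duplication. In the second (n = 3), called the double mutant below, the same duplication was combined with D835Y, an amino acid exchange in the activation loop. Both groups therefore carry the duplication, and the labels describe no parental cells, no drug and no cytokine in the serum-containing medium. The labels do not say how the receptor was introduced, whether a line was 1 clone or whether replicates were grown separately, so the tests weigh differences only against the spread of these libraries, which may be technical. The pro-B label was not checked against marker genes, since the starts are unnamed. The libraries held 5884258 to 13977941 tags, and levels are given in CPM, tags per 1000000 tags of a library, so that 1 tag was worth 0.0715 to 0.170 CPM. FLT3-ITD replicate 2 was the shallowest library and double-mutant replicate 2 the deepest.

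STAT proteins wait in the cytoplasm until a cytokine receptor or an oncogenic kinase phosphorylates them, after which they pair, enter the nucleus and bind palindromic DNA sites. STAT5A and STAT5B are closely related proteins made by neighbouring duplicate genes. They carry the survival and growth signal of interleukin-3 in pro-B cells, and FLT3-ITD is known to activate STAT5, which the normal FLT3 receptor does only weakly. STAT3 is the main transducer of the interleukin-6 family and can also be activated by oncogenic kinases. CAGE measures the RNA of these genes and not the phosphorylation through which the proteins are switched on.

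The promoter sequences are shown because 1 annotated promoter of Stat5a and the inner one of Stat5b, duplicate genes, share a stretch. The upstream Stat5b promoter had no such long stretch in common with Stat5a (alignment scores of 23 and 20). The inner Stat5b start is taken up again below. They come from RefSeq on GRCm38.p6 and run from 250 bases before an annotated start to 50 after it, 5′ to 3′ on the gene's strand. The RefSeq table holds 2 starts for Stat5a, 828 bases apart, 2 for Stat5b, 28011 bases apart, and 1 for Stat3. Since the build differs from that of the tables, no peak was placed on these letters. In the first pair, the downstream Stat5a start (chr11:100860234-100860533, plus strand) and the inner Stat5b start (chr11:100822521-100822820, minus strand), capitals mark the stretch that a local alignment found in common.
Stat5a downstream start: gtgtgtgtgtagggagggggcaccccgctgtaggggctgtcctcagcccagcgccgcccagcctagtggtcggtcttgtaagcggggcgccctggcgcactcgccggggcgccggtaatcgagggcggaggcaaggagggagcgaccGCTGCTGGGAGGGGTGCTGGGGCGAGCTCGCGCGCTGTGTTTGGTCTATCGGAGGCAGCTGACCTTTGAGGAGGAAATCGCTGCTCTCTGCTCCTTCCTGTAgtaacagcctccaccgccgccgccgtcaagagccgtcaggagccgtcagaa
Stat5b inner start: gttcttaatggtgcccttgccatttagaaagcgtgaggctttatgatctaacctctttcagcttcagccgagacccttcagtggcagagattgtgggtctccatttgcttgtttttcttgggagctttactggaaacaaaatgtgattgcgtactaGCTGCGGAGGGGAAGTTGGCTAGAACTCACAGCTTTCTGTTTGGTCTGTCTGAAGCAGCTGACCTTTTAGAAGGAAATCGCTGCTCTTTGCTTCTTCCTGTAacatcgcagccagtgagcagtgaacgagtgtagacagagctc
The alignment spans 104 columns, of which 83 (79.8%) are identical, and of the 10 pairs among the 5 annotated promoters this pair had the highest alignment score, 98 against 27 for the next. In the second pair, the upstream Stat5b start (chr11:100850532-100850831, minus strand) and the Stat3 start (chr11:100939491-100939790, minus strand), capitals mark motif matches.
Stat5b upstream start: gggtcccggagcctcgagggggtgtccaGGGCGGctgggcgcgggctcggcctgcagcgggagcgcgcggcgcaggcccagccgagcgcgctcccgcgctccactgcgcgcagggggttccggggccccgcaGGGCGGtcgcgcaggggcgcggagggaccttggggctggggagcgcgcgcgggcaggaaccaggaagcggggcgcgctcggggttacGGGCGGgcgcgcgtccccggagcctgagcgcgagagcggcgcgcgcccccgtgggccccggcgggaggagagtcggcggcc
Stat3 start: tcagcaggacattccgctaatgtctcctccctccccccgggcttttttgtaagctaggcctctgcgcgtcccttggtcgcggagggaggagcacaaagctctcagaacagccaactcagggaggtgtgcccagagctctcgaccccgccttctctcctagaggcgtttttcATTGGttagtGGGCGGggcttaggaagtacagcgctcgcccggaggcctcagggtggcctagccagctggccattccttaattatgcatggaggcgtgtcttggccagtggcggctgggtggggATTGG
Both strands were searched for the GC box GGGCGG, for the box CCAAT, for the TATA box as TATAAA, for the E box as CACGTG and for the palindrome of STAT dimers as TTCNNNGAA. The upstream Stat5b promoter held 3 matches to the GC box, the downstream Stat5a promoter 2 and the Stat3 promoter 1, beside 2 to the CCAAT box in Stat3. Of the CCAAT matches, 1 began 79 bases before the annotated start and the other 45 bases after it, at the end of the window. Of 32851 mouse promoters of this length, 35.7% held the GC box, 37.4% the CCAAT box, 13.6% the TATA box, 7.15% the E box and 8.30% the STAT palindrome. The letters of the last 3 motifs were in none of the 5 promoter windows. The upstream Stat5b promoter was 82.7% G or C, a higher share than in 99.7% of the promoters, against 47.3% for the inner Stat5b promoter, 67.7% for the downstream Stat5a promoter and 60.7% for Stat3.

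Most tags of each gene fell in 1 main start, which was listed as a broad interval. The main Stat5b start lay at chr11:100711801-100711910 on the minus strand, that of Stat5a at chr11:100721761-100721851 on the plus strand and that of Stat3 at chr11:100800671-100800770 on the minus strand. Stat5b and Stat5a thus pointed away from each other, with main starts 9950 bases apart, and Stat5a and Stat3 pointed towards each other, with main starts 78914 bases apart. The main starts spanned 109, 90 and 99 bases (listed end minus start) for Stat5b, Stat5a and Stat3. As listed, they were broader than 98.5%, 95.7% and 97.3% of the 19162 starts that reached 1 CPM in at least 3 libraries. These 19162 are the starts called tested below. The widths are those of the listed intervals, and how the tags of these libraries spread inside them was not measured. The main start held 99.1 to 100% of the gene's tags in each library for Stat5b, 99.0 to 99.7% for Stat3 and 91.2 to 94.6% for Stat5a. Of the 39 starts, 22 had a tag in any library, 4 passed the level filter, and 17 had none. The 4 were the 3 main starts and a second Stat5a start at chr11:100745688-100745704, 23890 bases downstream of the main one.

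**Figure D1:**
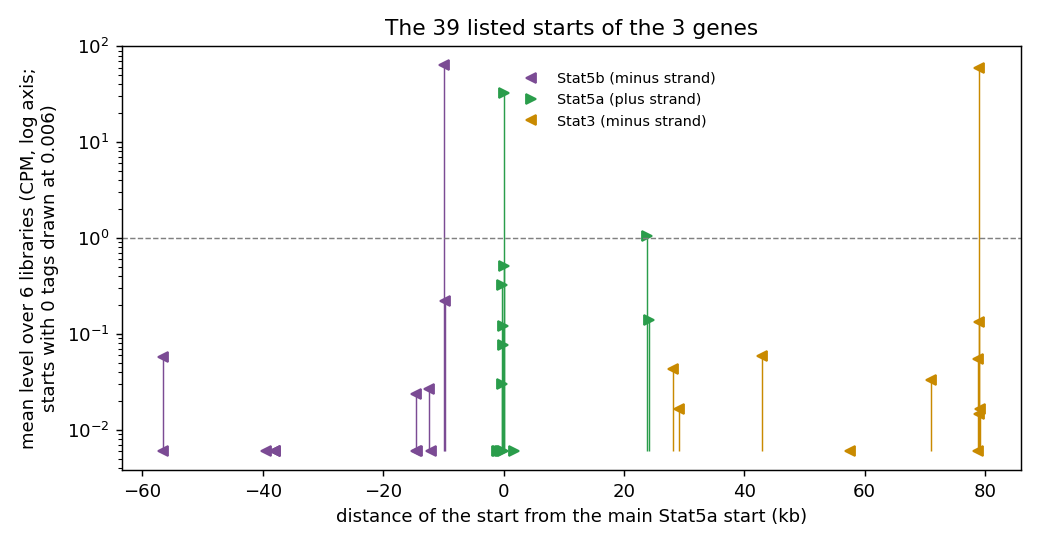
Mean level of each of the 39 listed starts over the 6 libraries (CPM, log axis) against its distance from the main Stat5a start in kb, with the arrow giving the strand. The 3 main starts stand at 32.8 to 63.5 CPM, 1 other start of Stat5a reaches 1.04 CPM, and the dashed line marks 1 CPM.

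No tags came from the inner part of Stat5b where its second annotated start would be sought. On the tables' own positions 3 starts were listed between 27991 and 28056 bases downstream of the main Stat5b start, which is the spacing of the 2 RefSeq starts given above. They held 0 of 63548800 tags in the 6 libraries together, which allows a level of up to 0.0472 CPM for each (3 tags, counting error only). In all, the 11 Stat5b starts more than 1000 bases downstream of the main one held 8 tags, against 4050 tags at the main start. Upstream of the main start, Stat5b had 1 start with 15 tags. For Stat5a, 10 starts were listed upstream of the main one and held 35 tags against 2063 at the main start, with 0 tags at the 5 of these that lay farthest away.

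Stat5b and Stat3 stood at similar levels and Stat5a well below both. A CAGE tag counts 1 RNA end whatever the length of the transcript, so summed levels were compared between genes without scaling by length. The summed level of Stat5b over its 13 starts was 64.4, 65.9 and 65.6 CPM with FLT3-ITD alone, and with D835Y added it was 60.2, 71.4 and 55.6 CPM. The double-mutant libraries lay on both sides of the FLT3-ITD ones, with replicate 2 the highest of all 6. Stat3 stood at 58.8, 57.1 and 52.6 CPM with FLT3-ITD alone, against 59.7, 71.3 and 56.6 CPM with D835Y added. Here too double-mutant replicate 2 was the highest and the groups overlapped. Stat5a stood at 35.6, 38.4 and 38.0 CPM with FLT3-ITD alone, against 32.6, 32.8 and 32.7 CPM with D835Y added. Its groups thus did not overlap, the double mutant being lower. Among all 19162 tested starts the groups did not overlap at 41.8%, in either direction, so this does not set Stat5a apart. The main starts of Stat5b, Stat3 and Stat5a ranked 2170, 2339 and 3740 of 19162 by mean level, above 88.7%, 87.8% and 80.5% of tested starts.

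**Figure D2:**
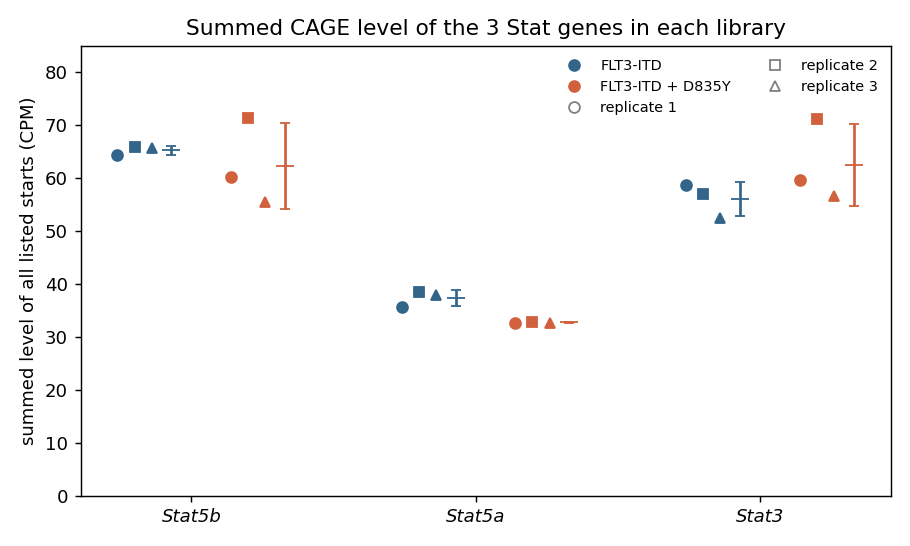
Summed level of each gene (CPM, linear axis from 0) in the 6 libraries, with symbols for replicates and the mean ± SD of each group (n = 3) beside the points. Stat5a lies between 32.6 and 38.4 CPM, below Stat5b and Stat3 in every library, and double-mutant replicate 2 tops the other libraries for Stat5b and Stat3.

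Stat5a was below Stat5b in 6 of 6 libraries and below Stat3 in 6 of 6 (exact sign-flip test over libraries, two-sided p = 0.031 for each, the smallest that 6 libraries allow, and 0.047 adjusted over the 3 pairs of genes). Stat5b was above Stat3 in 5 of 6 libraries, which the same exact test did not separate (p = 0.16). The spread of the libraries can be set against counting error. For Stat5b the SD was 0.84 CPM with FLT3-ITD alone and 8.15 CPM with D835Y added, where tag counts alone would give 2.78 and 2.28 CPM. For Stat3 the SDs were 3.23 and 7.75 CPM against 2.59 and 2.29 CPM. For Stat5a both were under the counting value, 1.52 and 0.099 CPM against 2.11 and 1.67 CPM, so the closeness of its 3 double-mutant values is tighter than tag counts of this size can resolve.

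The series asks which promoters differ with D835Y added to FLT3-ITD, and none of the 3 genes passed that test. Stat5a averaged 37.3 ± 1.5 CPM with FLT3-ITD alone and 32.7 ± 0.10 CPM with D835Y added (SD, n = 3 each), a log2 change of -0.18 with a 95% interval of -0.42 to 0.05 (SE 0.11, limma adjusted p = 0.25). Stat5b had 65.3 ± 0.84 and 62.4 ± 8.1 CPM, a log2 change of -0.07 with an interval of -0.33 to 0.18 (SE 0.12, limma adjusted p = 0.69). Stat3 had 56.1 ± 3.2 and 62.5 ± 7.7 CPM, a log2 change of 0.15 with an interval of -0.11 to 0.40 (SE 0.12, limma adjusted p = 0.40). Without double-mutant replicate 2 the change was -0.17 for Stat5b and 0.05 for Stat3, and without double-mutant replicate 3 that of Stat5b was 0.0052, none of them past the threshold. In terms of fold, the intervals run from 0.75 to 1.04 for Stat5a, from 0.80 to 1.13 for Stat5b and from 0.93 to 1.32 for Stat3, double mutant over FLT3-ITD. Changes inside these ranges were not resolved by 3 libraries a group, and the result does not show that the levels were equal. In bulk RNA, fewer cells that express a gene and less RNA per cell cannot be told apart.

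The single starts gave the same picture. Of the 4 tested starts 0 passed (limma, adjusted p under 0.05), where 24.4% of all 19162 tested starts passed. Without adjustment, 0 were under the same threshold with limma, 1 with edgeR and 0 with DESeq2. Of all 19162 tested starts, 7135 were under it with limma, 7076 with edgeR and 5578 with DESeq2, so 1 of 4 does not stand out. That 1 was the main Stat5a start, which edgeR gave an adjusted p of 0.096. The main Stat5a start had 33.4, 36.0 and 35.9 CPM with FLT3-ITD alone and 30.5, 31.0 and 29.9 CPM with D835Y added (log2 change -0.20, limma adjusted p = 0.22). It was the 1 tested start of the 4 whose groups did not overlap, which held for 41.8% of all tested starts. The main Stat5b start changed by -0.07 (limma adjusted p = 0.70) and the main Stat3 start by 0.15 (limma adjusted p = 0.38) on the same scale. Of all tested starts, 37.0% had a smaller absolute change than the main Stat5a start, 29.1% a smaller one than that of Stat3 and 13.6% a smaller one than that of Stat5b. The median change of the 4 starts was -0.13, and that of all tested starts 0.05, which was 0.01 with edgeR and with DESeq2.

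**Figure D3:**
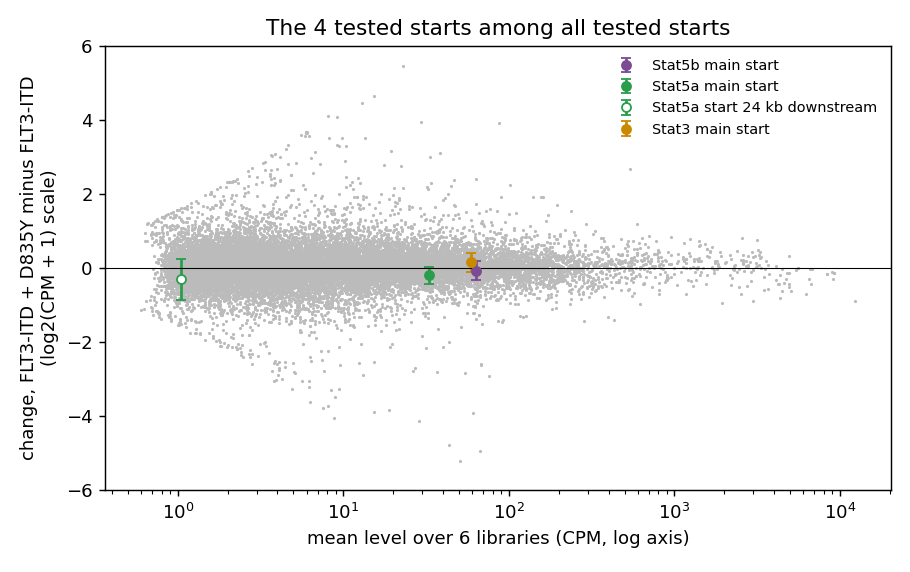
Change of every tested start (double mutant minus FLT3-ITD, log2(CPM + 1) scale) against its mean level over 6 libraries (CPM, log axis), with the 4 starts of the Stat genes in colour and their 95% limma intervals as bars. All 4 intervals include 0, with changes from -0.30 to 0.15.

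Ratios between the genes within a library do not depend on how libraries are scaled. The ratio of Stat5b to Stat3 was 1.09, 1.15 and 1.25 with FLT3-ITD alone and 1.01, 1.002 and 0.98 with D835Y added. The groups did not overlap, with means of 1.17 ± 0.078 and 0.998 ± 0.014 (SD, n = 3 each). The ratio of Stat5a to Stat3 was 0.61, 0.67 and 0.72 in FLT3-ITD cells and 0.55, 0.46 and 0.58 in the double mutant, again without overlap (0.667 ± 0.059 and 0.529 ± 0.061). The ratio of Stat5a to Stat5b was 0.55, 0.58 and 0.58 against 0.54, 0.46 and 0.59, and these groups overlapped, where 41.5% of the 19158 tested starts outside the windows did not in their ratio to Stat5b. Both ratios to Stat3 were lower in every double-mutant library than in any FLT3-ITD library. On the log2 scale the differences were -0.22 for Stat5b to Stat3 and -0.34 for Stat5a to Stat3 (exact permutation p = 0.10 each, the smallest that 3 against 3 allows, and 0.15 adjusted over the 3 ratios). For Stat5a to Stat5b the difference was -0.11 (exact permutation p = 0.40). Ratios to Stat3 separated the groups at 39.2% of those outside starts, and in the direction seen here, lower in the double mutant, at 23.9%. Ratios to Stat5b did so in that direction at 14%. The 3 ratios share their genes, so they are not independent of each other.

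**Figure D4:**
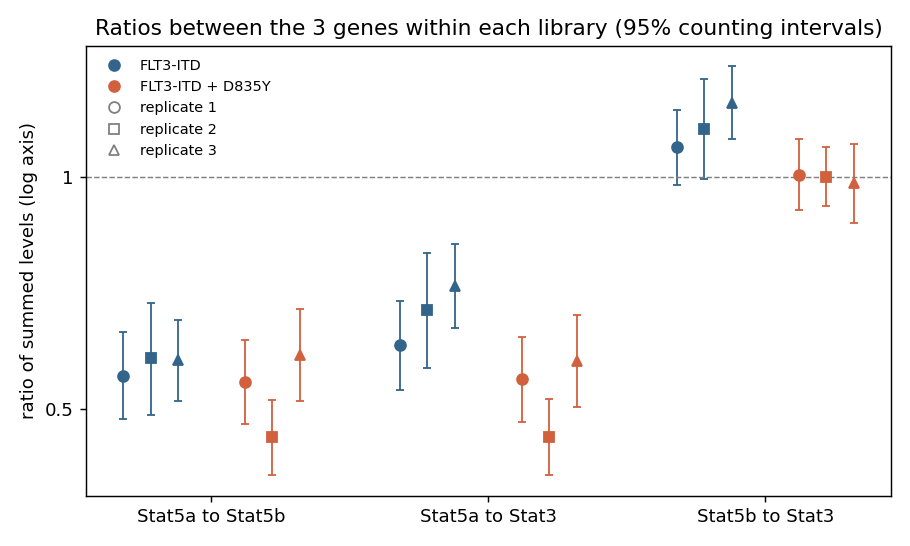
Ratio of summed levels within each library (log axis), with exact binomial 95% intervals from tag counts as bars and the dashed line at 1. The 3 double-mutant libraries sit at 0.98 to 1.01 for Stat5b to Stat3 and the 3 FLT3-ITD libraries at 1.09 to 1.25.

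Counting error limits each single ratio. The exact binomial 95% interval of the Stat5b to Stat3 ratio excluded 1 in 1 of the 6 libraries, FLT3-ITD replicate 3 (1.12 to 1.39, from 748 and 599 tags). In double-mutant replicate 2, the deepest library, it ran from 0.92 to 1.10 around 998 and 996 tags. That library also had the lowest ratio of Stat5a to Stat5b, 0.46 with an interval of 0.41 to 0.51, since Stat5b stood high in it and Stat5a did not.

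Starts other than the main ones carried few tags. The Stat5a start 23890 bases downstream, near the 3′ end of its window, had 1.27, 1.02 and 1.32 CPM with FLT3-ITD alone and 1.01, 0.14 and 1.48 CPM with D835Y added. All libraries but double-mutant replicate 2, with 2 tags, lay between 1.01 and 1.48 CPM, and the groups overlapped (log2 change -0.30, SE 0.26, limma adjusted p = 0.43). Without that library the change was 0.02. A further start 24146.5 bases downstream (centre to centre) held 9 tags in all. Most other minor starts of Stat5a lay close to the main one, the highest being chr11:100721961-100721968 with 33 tags over the 6 libraries and 0.29 to 0.79 CPM. Stat5b had 12 minor starts, 4 of them with tags, which held 23 tags together. Stat3 had 10, 8 of them with tags, which also held 23 together and reached at most 0.29 CPM.

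The share of tags at the main start differed little between the groups. For Stat3 it was 99.0, 99.4 and 99.0% in FLT3-ITD cells and 99.6, 99.7 and 99.5% in the double mutant, a difference of 0.45 percentage points (exact permutation p = 0.10, the smallest possible, and 0.30 adjusted over the 3 genes). Counting only starts within 1000 bases of the main one in the total, the difference was 0.15 percentage points (exact permutation p = 0.60). For Stat5a the mean was 94.1 ± 0.34% against 93.0 ± 1.7% (SD, n = 3 each; exact permutation p = 0.50), and for Stat5b 99.4 ± 0.53% against 99.6 ± 0.28% (exact permutation p = 0.60). The Stat3 difference rests on 23 tags at minor starts in all.

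Among neighbours, changes went in both directions. Within 1 Mb on either side of the windows 66 starts were tested, of which 10 rose and 5 fell with D835Y added (limma, adjusted p under 0.05), 22.7% in all. Their median change was 0.14, with quartiles of -0.08 and 0.35. Over the remaining 1599 tested starts of chromosome 11, 226 were higher and 107 lower (20.8% in all), with a median of 0.11. The changes of Stat5a and Stat5b, both below 0, thus lay below the median of their surroundings and that of Stat3, at 0.15, was close to it. The main starts of Stat5b (-0.07) and Stat3 (0.15) lay inside the quartiles of these 66 starts and the main start of Stat5a (-0.20) below the lower one.

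**Figure D5:**
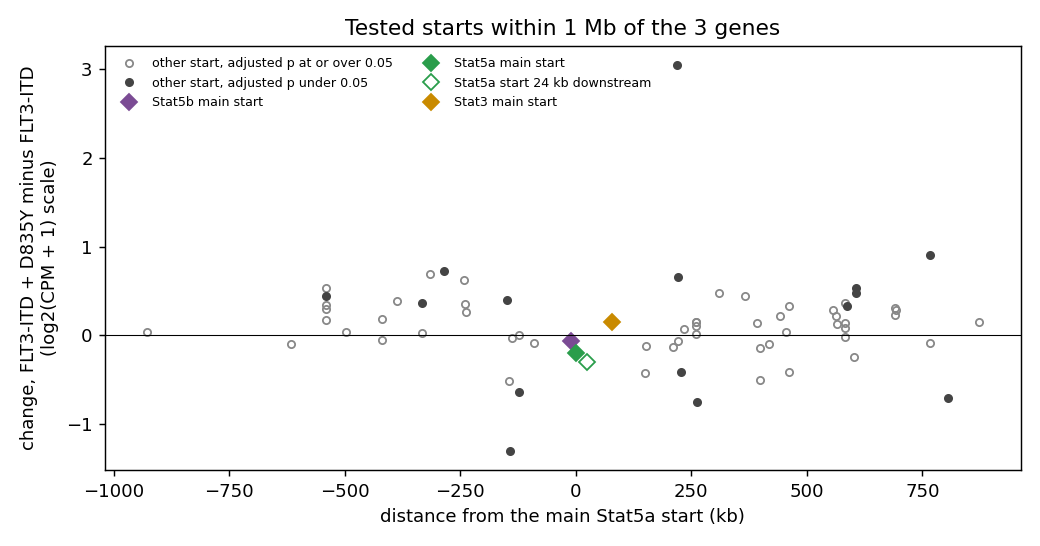
Change of the 66 tested starts within 1 Mb of the windows and of the 4 Stat starts (double mutant minus FLT3-ITD, log2(CPM + 1) scale) against distance from the main Stat5a start in kb. Filled grey points passed limma's adjusted p of 0.05. The Stat starts lie between -0.30 and 0.15, among neighbours that moved both up and down.

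The summed levels of the 3 genes come from the same 6 libraries, so within a library they share its depth and scaling. Pearson's r of their log2 values was 0.36 between Stat5b and Stat5a, 0.50 between Stat5b and Stat3, and -0.58 between Stat5a and Stat3. These are descriptions of 6 points in 2 groups. Among 10247 tested starts outside the windows with a mean of at least 5 CPM, many were more alike to a Stat gene than the other Stat genes were. An r of at least 0.9 was reached by 2.33% of them with Stat5b, 5.93% with Stat5a and 4.04% with Stat3. The 3 starts most alike to Stat5b (r of 0.995 to 0.999) lay on chromosomes 18, 9 and 9, the 3 most alike to Stat5a (0.990 to 0.995) on chromosomes 17, 3 and 14, and the 3 most alike to Stat3 (0.994 to 0.999) on chromosomes 8, 14 and 11.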

How the data were processed

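Total RNA was used for CAGE without amplification or tagging, per the labels' protocols. The values in the deposited tables are CPM made by the authors, tags per 1000000 over all listed peaks of a library. The submitters' processing notes name TopHat2 2.0.14, edgeR 3.24.3 and the builds hg19 and mm9, with no role given. Not given in the sources used here are the peak listing and tag filters. In each library 100% of the values were whole multiples of 1 tag within 0.01 tags, so tags were recovered (5884258 to 13977941 per library) for intervals and alternative tests. In double-mutant replicate 3 the value of 1 tag, 0.0989 CPM, is close to a round decimal step, but the values carry more decimals than such rounding would leave.

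Single starts that reached 1 CPM in at least 3 libraries (19162) entered limma 3.58.1 (R 4.3.3, with a mean-variance trend and robust moderation) on log2(CPM + 1), a scale that understates changes of low starts. P-values are two-sided and were adjusted by Benjamini-Hochberg over the whole table with a threshold of 0.05. For summed levels the tested starts of the 3 genes were replaced by 3 sums over all their listed starts (19161 rows, 24.4% passed). Ratios and shares were tested by exact permutation over libraries. Fold intervals are 2 to the power of limma's limits on this scale. edgeR 4.0.16 and DESeq2 1.42.0 on recovered tags, another pseudocount, filter or scaling, other sets of starts, the replicate number and each library left out were alternatives. The fits were run on simulated counts with planted changes larger than those of the 3 genes, so that run does not show whether changes this small would be found. Every listed start of the windows is a member, and the main start has the highest mean CPM. The 3 starts most alike to a gene were taken by Pearson's r. A list of other JAK-STAT pathway genes was planned but not tested, since starts could not be named on the build of the tables. The members, lists and tests were chosen with earlier results of these data known. Promoter sequences were aligned with Biopython 1.88.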

Additional observations from a re-analysis of the deposited data

How the results depend on the processing

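Of 151 refits of the levels, ratios, shares and tested starts, 147 had the same sign and stayed unpassed as before. The other 4 changed sign, all of results that had not passed. Refits of ratios and shares could not have passed, since the smallest p of their exact tests is 0.10, or 0.25 with the replicate block. For these only the sign and size of the difference can be compared. No tested start of the 3 genes passed in any of the 13 alternatives. Without double-mutant replicate 3 the log2 change of Stat5b was 0.0052 summed and 0.0080 at its main start. Without double-mutant replicate 2 that of the Stat5a start at 100745688 was 0.0229, its lowest value with a library left out being -0.537, and that of the main Stat5b start was -0.168, its lowest, and with only tested starts in the total the difference in the Stat5a main share was 0.517 percentage points, in place of -1.04. With single libraries left out, summed changes ran from -0.217 to -0.163 (Stat5a), -0.173 to 0.0052 (Stat5b) and 0.0496 to 0.214 (Stat3), with the lowest Stat3 value and the lowest Stat5b value without double-mutant replicate 2. Adjusted p over all alternatives was 0.117 to 0.530 for Stat5a, 0.166 to 0.983 for Stat5b and 0.291 to 0.735 for Stat3. Log2 ratio differences with a library left out ran from -0.406 to -0.241 (Stat5a to Stat3), -0.194 to -0.0153 (Stat5a to Stat5b) and -0.268 to -0.172 (Stat5b to Stat3). The number of all starts that passed was 2916 with a mean of at least 5 CPM, where fewer were tested, and 3076 (without FLT3-ITD replicate 2) to 5209 with a library left out. With the replicate number in the model (replicate block), the changes were -0.183, -0.0729 and 0.146 for Stat5a, Stat5b and Stat3 (limma adjusted p 0.329, 0.721 and 0.435) and 4109 of all starts passed. Pairing by number was not assumed. Libraries of 1 number deviated together with r of -0.0053, 0.0187 and 0.193, against -0.183 to 0.151 for libraries of unlike number. The r of 0.193, for replicate 3, was the highest of all, so these values do not settle whether the numbers pair libraries. Depth limits the minor starts, where 1 tag is worth up to 0.170 CPM.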

Other observations

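Starts on the strand opposite to the genes were few and weak. Inside the 3 windows 8 such starts were listed, and 3 of them had a tag in any library. A plus-strand start at chr11:100801171-100801185, 401 bases upstream of the main Stat3 start and pointing away from it, had 0, 0 and 0.18 CPM in FLT3-ITD cells and 0.42, 0.14 and 0.30 CPM in the double mutant, 2 against 10 tags. A plus-strand start at chr11:100711361-100711375, 426 bases inside the Stat5b gene from its main start, had 1 tag in FLT3-ITD cells and 5 in the double mutant. Its levels were 0, 0.170 and 0 CPM against 0.168, 0.143 and 0.099 CPM, so the highest was in FLT3-ITD replicate 2, the shallowest library. Both stayed under 1 CPM in every library and were not tested. No start was listed between the windows.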
